A study of Homo sapiens with 6 samples.

Results

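The genes described are those of the Wnt and adherens junction system on a panel of 236 cancer-related human genes: APC, CTNNB1 (beta-catenin), CDH1 (E-cadherin), WNT1 and WNT10B. They were taken by gene name from the raw counts, 5 of 236 genes in all. The samples were 6 preparations of total RNA from NCM-460, an epithelial cell line that was established from normal colon, counted with a NanoString nCounter assay, which tallies barcoded probes hybridised to RNA without amplification. Of these, 3 samples had been transfected with a control siRNA (control) and 3 with the primary transcript of a microRNA, pri-miR-135b (pri-miR-135b samples). No other treatment is named in the labels, and both groups are of the same line. Whether the 3 samples of a group were separate cultures is not stated. The p-values therefore reflect only how far these samples differ, which may be technical variation.

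In the canonical Wnt pathway, a secreted Wnt ligand such as WNT1 or WNT10B binds a receptor pair on the cell surface. Without a ligand, APC helps hold beta-catenin in a complex that marks it for degradation, and with a ligand beta-catenin builds up and switches on genes together with TCF factors. A second pool of beta-catenin sits at cell junctions, where it binds the inner tail of E-cadherin and links it through alpha-catenin to actin. Loss of APC is an early event in most colon tumours, and the colon epithelium depends on Wnt signals for its renewal.

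The agent that defines the groups is shown first. The hairpin within the primary transcript lies on the minus strand at chr1:205448302-205448398 of GRCh38.p14, with the 5p and 3p arms in capitals. In the mature strands, capitals mark the seed, bases 2 to 8 from the 5′ end, with which a microRNA pairs to its targets. The mature strands of miR-135b lie at chr1:205448361-205448383 (5p) and chr1:205448323-205448344 (3p) on the same strand. miR-135a-5p, on the minus strand at chr3:52294270-52294292 in its MIR135A1 copy, is given because it shares the 5p seed. All 4 sequences are from RefSeq.
MIR135B hairpin: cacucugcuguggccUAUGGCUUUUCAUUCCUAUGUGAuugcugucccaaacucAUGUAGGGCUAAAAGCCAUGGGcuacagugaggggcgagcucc
miR-135b-5p: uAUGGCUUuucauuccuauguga
miR-135b-3p: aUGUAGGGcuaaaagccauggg
miR-135a-5p: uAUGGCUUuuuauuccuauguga
The 5p strands of miR-135b and miR-135a are identical in 22 of 23 bases, and the 1 difference, C11U from miR-135b to miR-135a counted from the 5′ end, lies outside the seed. The 3p strand of miR-135b carries another seed. A transcript pairs with the shared seed through the letters AAGCCAU. Transcript sequences were not used here, so the genes were not searched for it. The level of miR-135b itself was not analysed here.

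Counts over the 236 genes totalled 250792 to 392207 per sample, and replicate 3 was the lowest in both groups. Background was 2 SD above the average of the 8 negative control probes of a sample, which was 14.7 to 26.1 counts. Genes above it in at least 3 of the 6 samples were tested, 174 in all. Of the epithelial markers looked up, 6 were on the panel. Their summed normalised count was 7634 to 7851 in control and 8785 to 8958 in pri-miR-135b samples, with CDH1 itself in the sum, and MUC1 among them stayed too low to test. MET was the largest part of the sum, with means of 4401.4 and 5502 counts. The markers did not move together: MET and CDH1 were called higher, ERBB3 and ERBB2 lower, and EGFR did not pass. Of 8 blood cell markers on the panel, 5 exceeded background in no sample, and their summed count was 99.1 to 106 in control and 98.1 to 102 in pri-miR-135b samples. Of 7 fibroblast and endothelial markers, 4 exceeded it in no sample, with sums of 73.2 to 114 and 88.1 to 112. None of these marker genes was at 0 in every sample, and counts at this level include non-specific ones. Their part in the results below was not tested.

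Beta-catenin and E-cadherin transcripts were higher, and APC transcripts lower, in the pri-miR-135b samples than in control, while neither Wnt ligand could be told from background in any sample. CTNNB1 rose 1.58-fold and CDH1 1.22-fold, and APC fell 1.48-fold. Of the 5 genes, 3 exceeded background and could be tested, and all 3 passed edgeR's quasi-likelihood test, where 43.1% of the panel did (17.8% higher, 25.3% lower). The 2 groups did not overlap in any of the 3 after normalisation, against 51.7% of tested genes. With so large a part of the panel called, the share of called genes says little about these 3, and the sizes and directions below are the result. In bulk RNA, a change in the number of cells that make a transcript and a change in the amount per cell cannot be told apart. The sources differ on what was transfected. Sample labels name a small interfering RNA and a primary microRNA, 2 kinds of RNA whose own effects cannot then be told apart from that of miR-135b. The design text of the series instead names oligos for both groups, scrambled and miR-135b. Groups are named here after the sample labels, and which description holds was not settled.

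**Figure D1:**
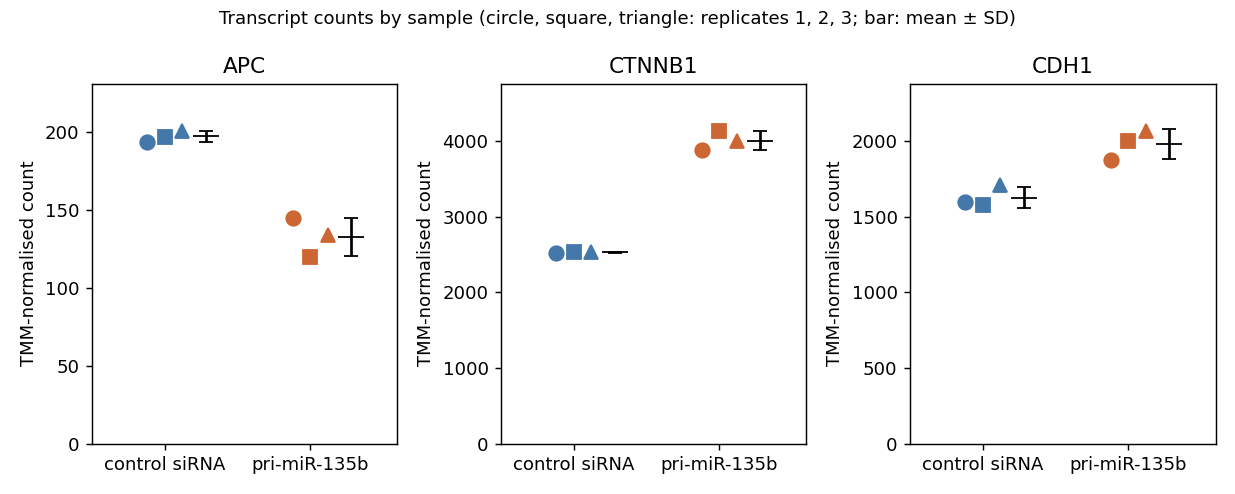
Counts of APC, CTNNB1 and CDH1 in each sample after TMM normalisation (y axis, starting at 0), by group; points are replicates and the black bar is the mean ± SD (n = 3). In each of the 3 genes every pri-miR-135b sample lies on the same side of every control sample, below it for APC and above it for CTNNB1 and CDH1.

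APC, the scaffold of the beta-catenin degradation complex, had raw counts of 199, 239 and 154 in the 3 control replicates and 174, 121 and 105 in the pri-miR-135b samples. Scaled to a common library size with TMM, a trimmed mean of ratios between samples, these became 193.8, 197.3 and 201.2 against 144.8, 119.8 and 133.8. The control samples were close together, all pri-miR-135b samples were lower, while the unscaled counts of the 2 groups overlapped. Group means were 197.4 ± 3.70 and 132.8 ± 12.5 normalised counts (SD, n = 3). The log2 fold change (called log2 change from here on), pri-miR-135b over control, was -0.56 (SE 0.10, 95% interval -0.78 to -0.35, edgeR adjusted p = 0.000121). Only 5 of the 44 called falls were larger. The APC probe counts were 13.5 to 23.1 times the mean of the negative probes of their own sample, so they were well clear of background.

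CTNNB1 encodes beta-catenin, at once the nuclear effector of Wnt signals and a junction protein. Its raw counts were 2587, 3065 and 1940 in control and 4659, 4178 and 3140 in pri-miR-135b samples. The normalised counts were 2519.3, 2530.0 and 2534.4 against 3877.1, 4136.8 and 4002.2. This was the one gene of the set whose groups were apart in the raw counts as well. The means were 2527.9 ± 7.78 and 4005.4 ± 129.9 (SD, n = 3), with a log2 change of 0.66 (SE 0.04, 95% interval 0.58 to 0.74, edgeR adjusted p = 2.09e-12). Among the 31 called rises, 5 were larger.

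CDH1 encodes E-cadherin, the adhesion receptor of epithelial junctions. It gave 1638, 1909 and 1306 raw counts in control and 2249, 2017 and 1623 in pri-miR-135b samples, and the raw groups overlapped. Normalised counts were 1595.1, 1575.8 and 1706.2 in control against 1871.6, 1997.1 and 2068.7. The groups no longer overlapped, and the lowest pri-miR-135b sample stood above the highest control. Means were 1625.7 ± 70.4 and 1979.1 ± 99.8 (SD, n = 3). The log2 change was 0.28 (SE 0.05, 95% interval 0.18 to 0.38, edgeR adjusted p = 4.92e-05). There were 18 larger called rises among the 31, and by absolute size the change ranked 59 of the 174 tested genes.

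The call for CDH1 rested on the choice of scaling in 1 case. When samples were scaled by the positive spike probes, added control targets that do not depend on cellular RNA, its log2 change was 0.33 (SE 0.15) and its edgeR adjusted p 0.162. Spike-scaled CDH1 counts were 1586.5, 1572.5 and 1579.2 in control and 1885.5, 2289.7 and 1767.8 in pri-miR-135b samples. The control samples came closer together under the spikes, the pri-miR-135b samples spread apart, and the groups still did not overlap. Under the same scaling 15.5% of the panel was called, and CTNNB1 (0.71, edgeR adjusted p = 0.00018) and APC (-0.53, edgeR adjusted p = 0.00919) were among the calls.

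**Figure D2:**
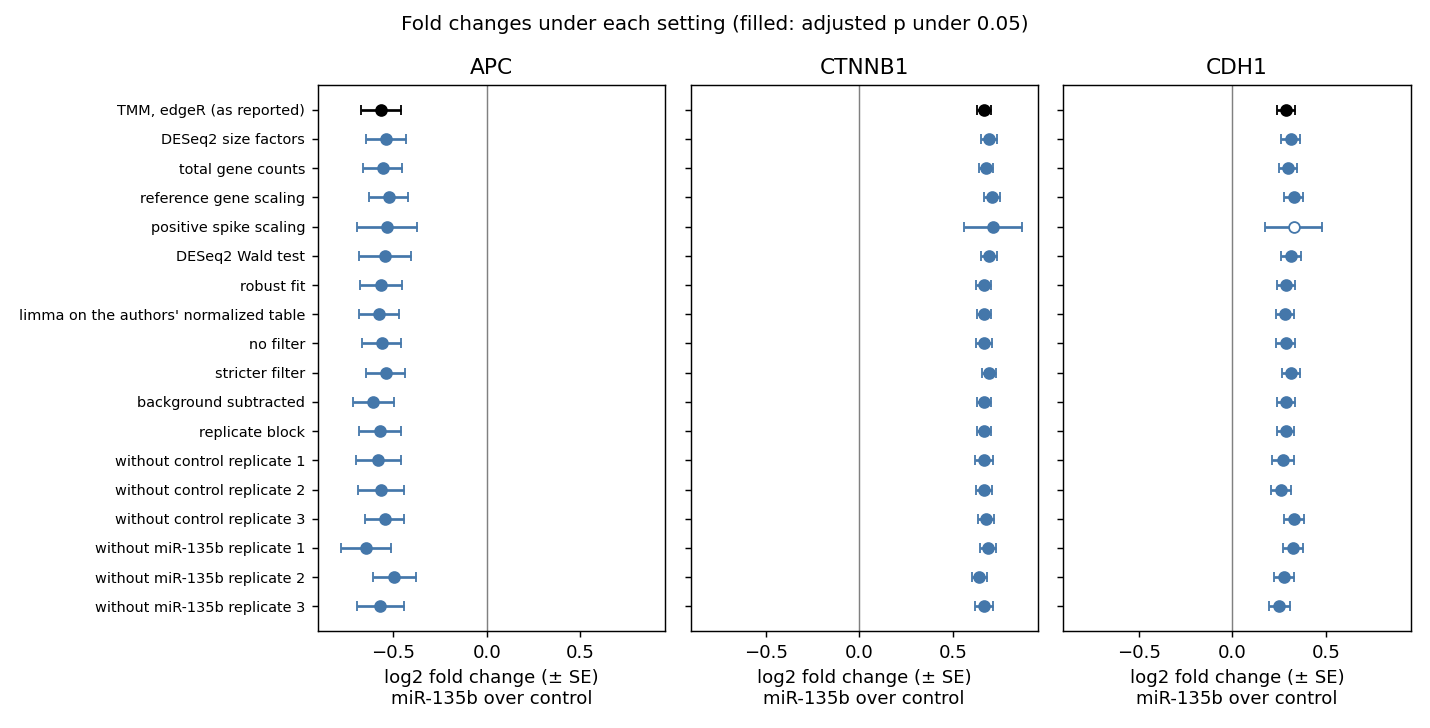
Log2 changes (x axis, ± SE) of APC, CTNNB1 and CDH1 under the reported fit (black) and 17 alternatives (blue); filled points have an adjusted p under 0.05. APC stays between -0.64 and -0.49, CTNNB1 between 0.64 and 0.71 and CDH1 between 0.25 and 0.33, and the single open point is CDH1 with spike scaling.

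The balance of these transcripts can be read without any scaling, from the ratio of 2 raw counts in the same sample. Probes differ in efficiency, so the ratio itself does not give relative abundance, but its change between groups does not depend on depth or on the reference chosen. The CTNNB1 to APC ratio was 13.0, 12.8 and 12.6 in the control replicates, and 26.8, 34.5 and 29.9 in the pri-miR-135b samples. The control ratios lay within a narrow range, and all pri-miR-135b ratios were far above it. The log2 change was 1.24 (SE 0.11, from the spread of the 3 samples in each group), a ratio 2.36-fold higher.

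The CDH1 to APC ratio was also apart between the groups, at 8.23, 7.99 and 8.48 in control and 12.9, 16.7 and 15.5 in pri-miR-135b samples, a log2 change of 0.86 (SE 0.11) or 1.81-fold. Beta-catenin and E-cadherin are partners at the junction. The CTNNB1 to CDH1 ratio was 1.58, 1.61 and 1.49 in control and 2.07, 2.07 and 1.93 in pri-miR-135b samples, a log2 change of 0.38 (SE 0.05) or 1.30-fold. The groups did not overlap in any of the 3 ratios. An exact two-sided permutation test gave p = 0.1 for each of the 3 pairs (adjusted over the 3 pairs, 0.1), which is the smallest p that 3 samples against 3 allow, so the threshold of 0.05 was out of reach. The 3 ratios share their genes and are not independent of each other.

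**Figure D3:**
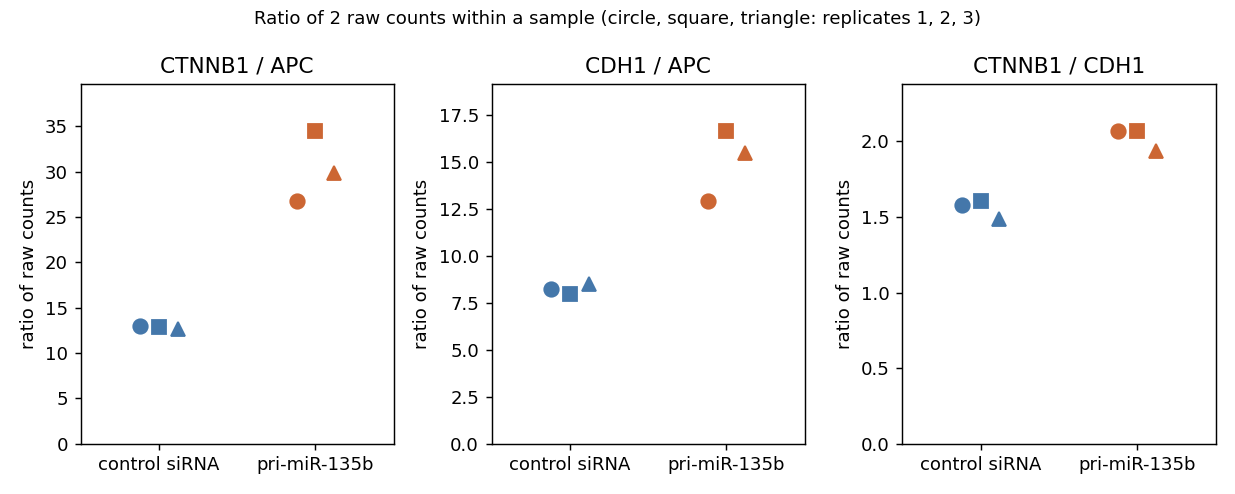
Ratios of raw counts within each sample (y axis, starting at 0) for CTNNB1 to APC, CDH1 to APC and CTNNB1 to CDH1, by group; points are replicates. All pri-miR-135b samples lie above all control samples in the 3 panels, and the pri-miR-135b samples spread most in the 2 ratios that contain APC.

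The Wnt ligands gave no measurable signal. WNT1, the founding member of the family, had raw counts of 3, 11 and 6 in control and 4, 2 and 5 in pri-miR-135b samples. Each was below the mean of the negative probes of its own sample, and between 5 and 8 of the 8 negative probes counted as high or higher. WNT10B, whose gene neighbours WNT1 in the RefSeq gene table of GRCh38.p14, had 11, 14 and 8 raw counts in control and 12, 10 and 8 in pri-miR-135b samples. These stood above the negative mean in 6 of 6 samples, by 1.03 to 1.28 times, and below the background level in every sample. In each sample 2 or 3 negative probes were as high as WNT10B. The weakest positive spike, marked 0.125 in the file, counted 30 to 58, above both genes in every sample.

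Neither ligand entered the reported test. In a fit of all 236 genes without a filter, their edgeR adjusted p-values were 0.254 (WNT1) and 0.834 (WNT10B), and no fold is given because both groups were at background. With the highest negative probe of each sample as the limit in place of the mean plus 2 SD, 0 of 6 samples exceeded it for either gene. Expression under the background level was not detectable in this assay.

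**Figure D4:**
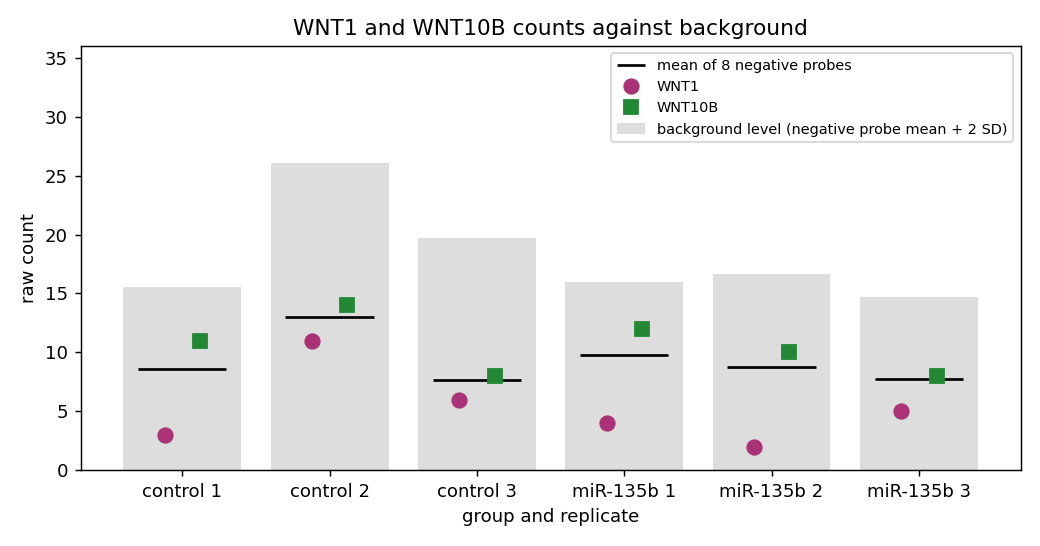
Raw counts of WNT1 (circles) and WNT10B (squares) in each sample, with the background level of the sample (grey bar) and the mean of its 8 negative probes (black line). WNT1 lies under the line and WNT10B just above it in all 6 samples, and both lie inside the grey bar.

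Transcripts known to respond to beta-catenin were looked up as a list of 22 genes, of which 9 were on the panel and 8 could be tested. Of these 8, 4 rose, 3 fell and 1 did not pass, and their median log2 change was 0.04, against -0.04 over all 174 tested genes. Over those 174, 43.1% were called, 17.8% higher and 25.3% lower, and the list was not tested as a set. JUN, an AP-1 transcription factor, rose from 452.8, 475.5 and 461.2 normalised counts to 645.8, 658.4 and 591.4 (log2 change 0.45, SE 0.06, edgeR adjusted p = 4.07e-06). MET, the hepatocyte growth factor receptor, rose from 4450.4, 4352.6 and 4401.3 to 5550.6, 5474.5 and 5480.8 (0.32, SE 0.03, edgeR adjusted p = 4.1e-08). In both genes the groups were well apart and each group was tight.

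The cell cycle driver CCND1 (log2 change 0.14) and the urokinase receptor PLAUR (0.17) were called higher as well, each in 3 of the 6 fits that left out 1 sample. Their edgeR adjusted p was 0.0439 and 0.031, and in those 6 fits it reached 0.172 and 0.151. PLAUR groups overlapped, at 636.9 to 714.0 counts in control and 702.3 to 790.1 in pri-miR-135b samples. The CCND1 call ended when control replicate 3, or replicate 1 or 2 of pri-miR-135b, was left out. For PLAUR it ended without replicate 1 of either group or replicate 2 of pri-miR-135b. Over all 17 alternatives CCND1 was called in 11 and PLAUR in 13. The other losses were with spike scaling for both (edgeR adjusted p = 0.489 and 0.38) and, for CCND1, without a filter (edgeR adjusted p = 0.0711) and in limma on the authors' normalized table (adjusted p = 0.0514).

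Among the falls in this list, CD44, a hyaluronan receptor, went from 2412.2, 2232.8 and 2256.2 counts to 1694.3, 1504.0 and 1696.5 (log2 change -0.50, SE 0.05, edgeR adjusted p = 3.84e-08). MYC, a growth-promoting transcription factor, went from 4572.1, 4801.6 and 4618.1 to 3583.3, 3357.6 and 3390.4 (-0.44, SE 0.04). The ETS factor ETS2 went from 3462.9, 3032.7 and 3336.5 to 2929.2, 2556.6 and 2800.3 (-0.24, SE 0.05, edgeR adjusted p = 0.000442). Each of these falls left the groups apart. BIRC5, the apoptosis inhibitor survivin, had 1748.7 ± 37.7 counts in control and 1667.7 ± 52.9 in pri-miR-135b samples (-0.07, 95% interval -0.16 to 0.02, edgeR adjusted p = 0.21). The drug efflux pump gene ABCB1 exceeded background in no sample. With spike scaling, 1 gene of the list was called higher (JUN) and 1 lower (CD44). MET (edgeR adjusted p = 0.093), MYC (0.0624) and ETS2 (0.423) lost their calls there.

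The adhesion list had 5 of its 15 genes on the panel, and 4 could be tested. CTNNB1 and CDH1 rose, while CD44 and ITGB1, both receptors for the matrix outside the cell, fell. ITGB1, the integrin beta-1 chain, had 12176.7, 12351.1 and 12289.3 normalised counts under control siRNA and 8512.3, 8319.2 and 8264.5 in pri-miR-135b samples (log2 change -0.55, SE 0.03, edgeR adjusted p = 1.92e-13). Both components of the cadherin junction that were counted were higher and both matrix receptors lower. All 4 were thus called, where 43.1% of all tested genes were. CTNNB1 and CDH1 belong to the set described here, and set and list were chosen with earlier results of these data known. So few genes give no result about junction genes or matrix receptors as classes. The list median was -0.11, against -0.04 over all tested genes. With spike scaling the CDH1 call was lost (edgeR adjusted p = 0.162). CDH11, a mesenchymal cadherin, was too close to background to test, at 7 to 17 raw counts. Alpha-catenin and plakoglobin were not analysed here.

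**Figure D5:**
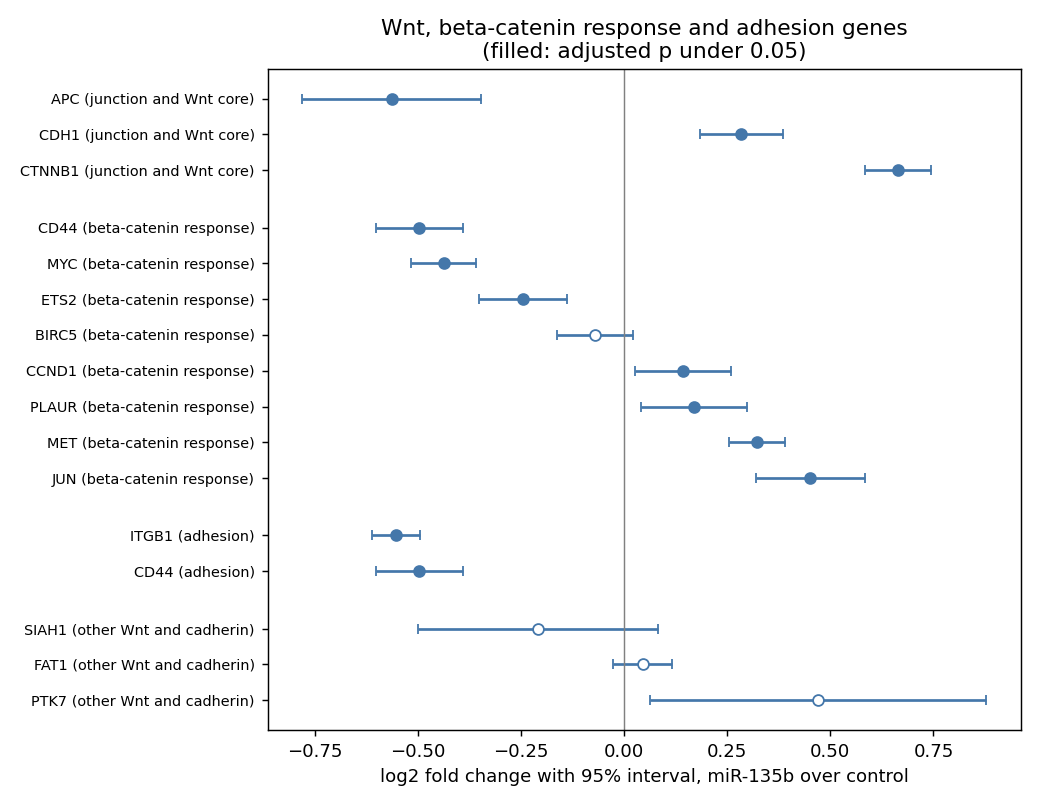
Log2 changes, miR-135b over control, with 95% intervals that are not adjusted for multiple testing, for the tested genes of the Wnt and adherens junction set, the beta-catenin response list, the adhesion list (CD44 is in both) and 3 further Wnt or cadherin genes; filled points have an adjusted p under 0.05. JUN and MET lie right of 0 with CTNNB1 and CDH1, and CD44, MYC, ETS2 and ITGB1 lie left of 0 with APC.

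Genes that repress E-cadherin or mark mesenchymal cells were represented by 3 of 13 on the list, and the direct repressors SNAI1, SNAI2, TWIST1, ZEB1 and ZEB2 were not analysed here. S100A4, a calcium-binding protein of motile cells, fell (log2 change -0.48, SE 0.09, edgeR adjusted p = 0.000104), but its control samples spread over 5672.9 ± 1042.4 counts. Its call was kept in 16 of the 17 alternatives and lost in the robust fit (edgeR adjusted p = 0.0977). TGFB1, the ligand TGF-beta 1, had 717 ± 47.1 counts in control and 678.5 ± 31.7 in pri-miR-135b samples (-0.08, 95% interval -0.20 to 0.05). The gelatinase gene MMP2 was close to background, with 17.9 ± 3.16 and 23.7 ± 2.52 counts (edgeR adjusted p = 0.205). It exceeded background in every pri-miR-135b sample and in no control sample, so it entered the test only through the group where it was higher.

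Of 6 tested epithelial markers, CDH1 and MET rose, ERBB3 and ERBB2 were called lower and 2 did not pass. Of all tested genes, 43.1% were called (17.8% higher, 25.3% lower). ERBB3, a receptor of the EGF receptor family, fell from 854.0, 873.3 and 872.7 normalised counts to 644.9, 564.4 and 614.4 (log2 change -0.51, SE 0.06, edgeR adjusted p = 2.55e-07). The call for the related receptor ERBB2 (-0.19, edgeR adjusted p = 0.0234) was kept in 2 of 6 fits that left out 1 sample, where the adjusted p ranged from 0.00771 to 0.128. It was lost without control replicate 1 or 3 and without pri-miR-135b replicate 1 or 2, and under reference gene scaling (0.0908), DESeq2 size factors (0.0517) and spike scaling (0.656), where the count of falls in this list was 1. EGFR itself had 225.8 ± 24.1 and 222.3 ± 16 counts (-0.04, 95% interval -0.24 to 0.16), and its sign turned under reference gene and spike scaling. MST1R, the RON receptor, had 508.7 ± 42.6 and 522.1 ± 1.02 (0.03, 95% interval -0.11 to 0.16), and its sign turned without control replicate 3.

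The genes whose values ran closest to each of the 3 over the 6 samples were found from log2 normalised counts centred on each gene's mean. Likeness was the root mean square difference from the gene in question, among the other 173 tested genes. Nearest to APC were ERBB3 (0.04), CD44 (0.07), ITGB1 (0.07) and TGFBR2 (0.08), a TGF-beta receptor. Nearest to CTNNB1 were the cell cycle inhibitor gene CDKN1A (0.04), the survival gene BCL2L1 (0.05), the transcription factor STAT3 (0.08) and E2F3 (0.10). Nearest to CDH1 were CAV1, the membrane protein caveolin-1 (0.05), the survival gene MCL1 (0.05), MET (0.06) and the chaperone gene HSP90AB1 (0.07). The measure favours genes with a group difference of the same size, and the 6 samples fall into 2 clusters, so no correlation coefficient is given. By rank of correlation the first genes were ERBB3 for APC, IL8 for CTNNB1 and ETS1 for CDH1. Ranked by correlation in place of the root mean square difference, the first 4 genes shared 2 with those named for APC, 1 for CTNNB1 and 1 for CDH1. The authors' normalized table is a rescaling of the same counts by 1 factor per sample. Such a factor cancels in the difference between 2 genes. The 4 genes nearest to each of the 3 therefore had to be the same in that table, which is no check on them. Ranks by correlation do depend on the factors, and there CTGF took the place of ETS1 as the first for CDH1.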

How the data were processed

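Raw nCounter counts, whole numbers per probe for 236 genes, 6 positive spikes and 8 negative controls, were deposited by the authors. Per the labels' protocols, Trizol-extracted total RNA was brought to 33 ng per microlitre and was not labelled. The authors' normalized table holds signal values on a linear scale. Multiplying raw counts by 1 factor per sample gave all 1416 of these within 0.02, with a raw 0 set to 1. The sources used here do not give the counter software or what the factors rest on. Genes above background in at least 3 of 6 samples (174) were tested with edgeR 4.0.16 in R 4.3.3 (TMM, glmQLFit and glmQLFTest, group as the only term, two-sided) and p-values were adjusted by Benjamini-Hochberg across these 174, with 0.05 as the threshold. Control probes stayed out of library sizes. Standard errors of edgeR log2 fold changes were the absolute value over the square root of F, and those of ratios came from the SDs of 3 log2 ratios per group. The procedure was also run on simulated counts whose spread was fitted to these samples. That run cannot show whether replicates were separate cultures or which scaling is right. The edgeR standard errors and intervals draw on variances pooled over genes, while SDs are each gene's own over 3 samples. Non-specific counts pull the fold of a gene near background toward 1.

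The alternatives were DESeq2 1.42.0 size factors and Wald test, total counts, scaling by reference genes (GAPDH, TUBB, PGK1, HPRT1, GUSB and CLTC) or spikes, a robust fit, limma 3.58.1 on the authors' normalized table (pseudocount 1) and on background-subtracted counts (floor 1), no filter, a stricter filter (above background in all 6 samples), the replicate number as a block, and leaving out each sample.

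The 5 genes and all lists were chosen with earlier results of these data known. The genes named were the 5, every tested gene of the Wnt, beta-catenin response and adhesion lists, up to 4 of each other list by size of change, and for each of APC, CTNNB1 and CDH1 the 4 genes with the smallest root mean square difference and the first by correlation. MST1R, ABCB1 and CDH11 were named to complete their lists, and FRZB, SIAH1, PTK7, FAT1 and L1CAM were added from the names on the panel. Gene identities follow the RefSeq accessions in the file, which matched GRCh38.p14 for all 5.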

Additional observations from a re-analysis of the deposited data

How the results depend on the processing

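Over 17 alternatives, CTNNB1 and APC kept direction and call. CDH1 kept its direction in all and its call in 16, the exception being spike scaling (0.327, adjusted p = 0.162); the cause was not tested. The panel gave 75 calls, 27 with spike scaling, and 60 to 76 when 1 sample was left out. Without 1 sample the log2 fold changes ran from -0.644 to -0.491 (APC), 0.639 to 0.687 (CTNNB1) and 0.251 to 0.327 (CDH1). With the replicate block they were -0.568, 0.664 and 0.284, and the block changed none of these 3 calls. Deviations of same-numbered samples correlated by 0.04, -0.15 and 0.12 over the tested genes, and the numbers were not taken as pairs. These correlations weigh all tested genes alike, so they cannot show that no gene follows the replicate number. With the block, the SE fell for some listed genes (S100A4, from 0.087 to 0.031) and rose for others (APC, from 0.105 to 0.110). Spike scaling left 1 rise and 1 fall in the beta-catenin response list, 1 rise in the adhesion list, and 0 rises and 1 fall among epithelial markers. Epithelial falls were also 1 with DESeq2 size factors, its Wald test and reference genes, and 1 to 2 when 1 sample was left out. Rises in the response list were then 2 to 4. The single mesenchymal fall became 0 in the robust fit. Signs turned only for genes that did not pass: EGFR (0.00094 with reference genes, 0.0025 with spikes, -0.097 to 0.043 without 1 sample), MST1R (-0.0195 to 0.0842 without 1 sample), IGF1 (0.065 in the authors' table, 0.276 with background subtracted, -0.331 to 0.466 without 1 sample) and COL1A1 (0.305 with background subtracted, -0.188 to 0.11 without 1 sample). Of 418 other values of listed genes, 378 kept direction and call. Subtracting background gave a log2 change of 1.27 for the CTNNB1 to APC ratio, 0.89 for CDH1 to APC and 0.38 for CTNNB1 to CDH1, and pairing same-numbered samples gave p = 0.25 for each, the smallest an exact test on 3 pairs allows. WNT1 and WNT10B exceeded neither background limit in any sample, and whether depth limits them was not tested.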

Other observations

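Another 5 panel genes with a known part in Wnt signalling, in the cadherin family or in cell adhesion were chosen by name after the lists were set. PTK7, a Wnt co-receptor without kinase activity, had 32.1, 38.8 and 41.8 normalised counts under control siRNA and 56.6, 40.6 and 58.6 in pri-miR-135b samples. The groups overlapped through 1 pri-miR-135b sample, the log2 change was 0.47 (SE 0.20), and the edgeR adjusted p was 0.0573. Over the 17 alternatives it ranged from 0.0299 to 0.227 and was under 0.05 in 6. SIAH1, a ubiquitin ligase that can degrade beta-catenin, had 94.9 ± 13.4 counts in control and 84 ± 5.02 in pri-miR-135b samples (SD, n = 3; edgeR adjusted p = 0.234). FAT1, an atypical cadherin, had 4608.4 ± 123.8 and 4753 ± 68.1 (log2 change 0.04, 95% interval -0.03 to 0.12, edgeR adjusted p = 0.305). The secreted Wnt antagonist FRZB and the adhesion molecule L1CAM exceeded background in no sample.

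After TMM scaling, the 3 control values of CTNNB1 lay closer together than counting error alone would give on average. Their coefficient of variation was then 0.308%, against 2.01% from counting error at these raw counts, and it was the lowest of the 174 tested genes in control. The spread depended on the scaling. Control values were 2527.9 ± 7.78 with TMM, 2450.1 ± 28.3 with reference genes and 2458.7 ± 98.2 with spikes (SD, n = 3). In pri-miR-135b samples it was 3.24%, against 1.6% from counting. For APC the control value was 1.87% against 7.21%. A spread under counting error was found for 36.8% of tested genes in control and 44.8% in pri-miR-135b samples, where 3 samples give only a rough estimate of a spread. The reported standard errors rest on variances pooled over genes and not on these values alone.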
